A study of Mus musculus with 6 samples.

Results

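Tumour necrosis factor (TNF) and the genes named after it were followed in RAW 264.7 cells, a macrophage line from a mouse tumour caused by a leukaemia virus. The 9 genes are the ligands of the Tnf locus (Tnf, Lta and Ltb), genes named as TNF-induced proteins (Tnfaip1, Tnfaip2, Tnfaip3 and Tnfaip8) and genes of the A20-binding proteins (Tnip1 and Tnip2). They were taken by the gene symbols of the platform's probe annotation. Of 16281 probes in the value table, 13 carried 1 of these symbols and covered 8 of the 9 genes. No probe with the symbol Tnfaip8 was found. Of the 2 Tnip1 probes, 1 was listed at exactly 0 on all 6 arrays and counted as not measured, which left 12 probes and all 8 genes with a value on every array.

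Treated cells had received lipopolysaccharide (LPS) at 100 ng/ml together with LPS-binding protein (LBP) at 100 pM and were harvested after 4 h. Untreated cells of the same line were cultured for the same time. LPS is a bacterial outer-membrane lipid, and LBP carries it to the receptor complex on the macrophage surface. Total RNA of both was hybridised on 6 two-colour arrays, with treated RNA labelled in Cy5 on 3 arrays and in Cy3 on the other 3. Within each orientation the arrays are numbered as sets 1, 2 and 3 in the labels.

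TNF is made as a membrane protein, shed by a protease, and signals through receptors whose adaptors build ubiquitin chains that activate the transcription factor NF-κB. A20, the product of Tnfaip3, edits and removes such chains and is itself induced by NF-κB, with the A20-binding proteins as its helpers. Macrophages are a main source of TNF after LPS.

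Values are given as log2 of the ratio of treated to untreated RNA, so 1 unit is a 2-fold difference. The table gives ratios and no intensities, so levels of different genes cannot be compared and marker genes cannot be read as present or absent. The direction rests on the labels, which call Cy5 the test channel. A reversed convention would turn every sign. In total RNA from a culture, more cells with a transcript and more transcript per cell cannot be told apart. A gene was called where limma, a linear model fitted across all 11364 features, gave a Benjamini-Hochberg adjusted p below 0.05. Whether the sets are separate cultures is not stated. The p-values here cover only how far the set means vary, and that variation may be technical. Each set mean averages the arrays of both orientations, but these arrays did not deviate together. Correlations of their deviations from the orientation means were -0.48, -0.51 and -0.02 for sets 1 to 3. Averaging then cancels part of the scatter between arrays, so SDs over sets and adjusted p-values may be too small.

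The DNA before each start is shown for the 5 genes that rose more than 2-fold and for Tnip2. Genes were thus chosen for display by their ratios, and the windows of Lta and Tnfaip1 were searched but are not shown. These are the 250 bases before the RefSeq start in build GRCm38.p6, written 5′ to 3′ along each gene, with matches to the κB consensus, the NF-κB binding motif, in capitals. The windows are chr17:35202008-35202257 (minus strand) for Tnf, chr17:35194257-35194506 (plus) for Ltb and chr12:111442411-111442660 (plus) for Tnfaip2. Those of the others are chr10:19015411-19015660 (minus) for Tnfaip3, chr11:54962941-54963190 (minus) for Tnip1 and chr5:34513980-34514229 (minus) for Tnip2.
Tnf: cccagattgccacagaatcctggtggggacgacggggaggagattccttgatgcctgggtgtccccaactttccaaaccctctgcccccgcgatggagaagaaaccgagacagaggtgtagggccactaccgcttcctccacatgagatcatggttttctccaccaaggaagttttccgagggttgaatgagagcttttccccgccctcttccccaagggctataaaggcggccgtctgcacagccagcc
Ltb: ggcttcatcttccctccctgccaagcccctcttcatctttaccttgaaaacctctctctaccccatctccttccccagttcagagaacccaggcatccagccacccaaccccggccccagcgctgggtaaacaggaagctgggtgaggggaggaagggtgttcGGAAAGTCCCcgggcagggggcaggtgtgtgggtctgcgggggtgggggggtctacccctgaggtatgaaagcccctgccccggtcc
Tnfaip2: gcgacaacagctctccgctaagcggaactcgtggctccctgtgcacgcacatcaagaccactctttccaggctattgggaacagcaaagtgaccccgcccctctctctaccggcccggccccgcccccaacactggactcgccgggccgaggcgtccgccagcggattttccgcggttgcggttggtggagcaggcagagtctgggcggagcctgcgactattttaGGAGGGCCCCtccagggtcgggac
Tnfaip3: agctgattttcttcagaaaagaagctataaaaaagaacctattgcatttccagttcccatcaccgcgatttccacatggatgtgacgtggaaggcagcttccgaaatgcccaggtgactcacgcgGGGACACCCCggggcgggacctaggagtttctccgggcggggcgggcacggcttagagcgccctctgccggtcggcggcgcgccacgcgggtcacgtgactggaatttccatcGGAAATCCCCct
Tnip1: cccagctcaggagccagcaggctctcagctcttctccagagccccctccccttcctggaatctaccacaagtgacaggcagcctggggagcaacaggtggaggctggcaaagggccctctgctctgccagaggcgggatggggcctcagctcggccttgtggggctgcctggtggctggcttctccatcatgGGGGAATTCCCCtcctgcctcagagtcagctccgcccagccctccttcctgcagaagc
Tnip2: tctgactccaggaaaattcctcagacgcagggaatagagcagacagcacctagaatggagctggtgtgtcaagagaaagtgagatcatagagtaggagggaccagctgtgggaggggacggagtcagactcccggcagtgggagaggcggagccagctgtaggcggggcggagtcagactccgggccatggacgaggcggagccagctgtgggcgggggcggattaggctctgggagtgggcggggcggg

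The κB consensus, searched on both strands, was present before 4 of the 8 measured genes. A gene counted if any of its windows matched, and the 8 genes had 9 windows. Counted by window, 7.25% of 32851 RefSeq windows of the same length held it. Tnfaip3 had 2 separate matches, at bases -125 to -116 and -12 to -3 from the start, a feature of 0.396% of all windows. Tnip1 had a single stretch of overlapping matches from -58 to -47, which reads the same on both strands. Ltb had 1 match at -87 to -78, and Tnfaip2 had 1 at -24 to -15. No match lay in the windows of Tnf, Lta, Tnfaip1 or Tnip2. Tnfaip3 has another RefSeq start further into the gene, and its window held none. DNA further upstream was not searched, and sites that depart from the consensus would be missed. A window without a match thus does not show that a gene lacks NF-κB sites.

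Of other motifs, the TATA box (TATAAA, forward strand only) lay at -29 to -24 before Tnf, and further out, at -167 and -225, before Lta and Tnfaip3. It was found in 7.59% of all windows. The AP-1 site TGANTCA, searched on both strands, was found at -136 to -130 of Tnfaip3 alone among these genes, against 6.75% of all windows. The cyclic AMP response element TGACGTCA was in none of them and in 1.55% of all windows. A match is a stretch of letters and was not tested for binding.

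**Figure D1:**
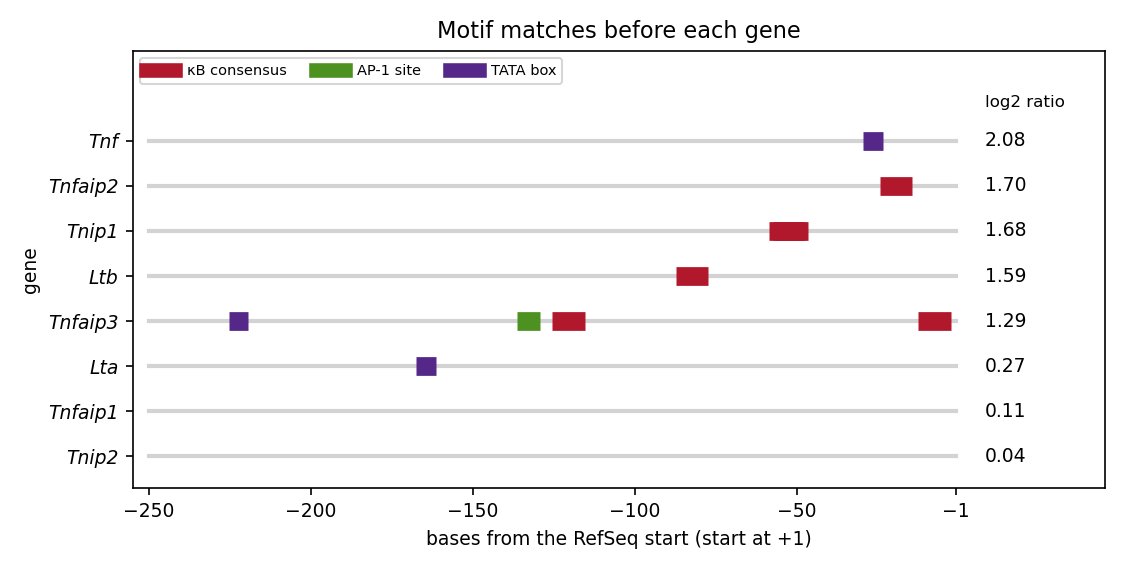
Motif matches in the 250 bases before the RefSeq start of each measured gene (horizontal axis, bases from the start), with genes from top to bottom by their log2 ratio, printed at the right. Red blocks mark the κB consensus before Tnfaip2, Tnip1, Ltb and Tnfaip3, green the AP-1 site and purple the TATA box.

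Of the 8 genes, 6 rose, 0 fell and 2 were not called. Among all 11364 features, 14.0% were called higher and 15.0% lower. The median log2 ratio of the 8 genes was 1.44, against 0.00079 over all features. The 5 genes that rose at least 2-fold were Tnf, Tnfaip2, Tnip1, Ltb and Tnfaip3, and such calls made up 1.87% of all features. The same 5 passed a limma test against a 1.5-fold change, as did 2.3% of features in the upward direction.

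**Figure D2:**
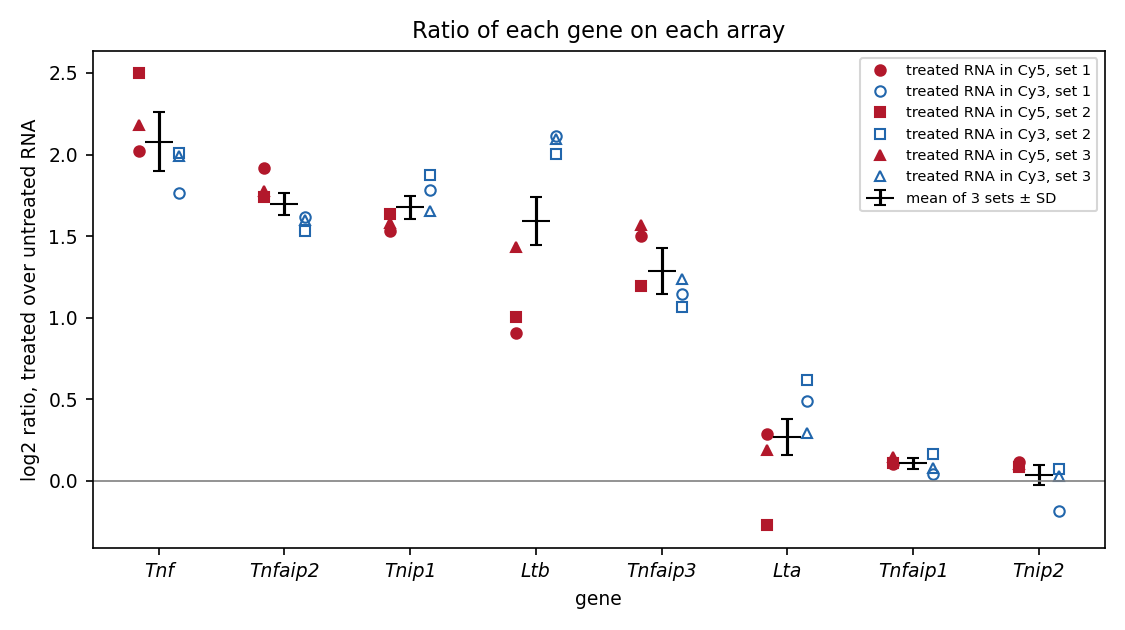
Log2 ratio of treated over untreated RNA (vertical axis) of the 8 genes on each of the 6 arrays, with filled red symbols for treated RNA in Cy5 and open blue symbols for treated RNA in Cy3. Black bars are the mean of 3 sets ± SD, from 2.08 for Tnf to 0.036 for Tnip2. The symbols of the 2 orientations do not overlap for Tnf, Tnfaip2, Tnip1 and Ltb, with the widest gap between means for Ltb. Those of Lta lie on both sides of 0.

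Among the ligands, Tnf, the gene of the cytokine itself, had log2 ratios of 2.02, 2.50 and 2.18 in sets 1 to 3 with treated RNA in Cy5, and of 1.77, 2.01 and 1.99 with treated RNA in Cy3. The lowest array was at 1.77 and the highest at 2.50. The mean was 2.08 ± 0.18 (SD, n = 3 sets), a 4.22-fold rise (limma adjusted p = 9.01e-07), and 70 features of the whole table had a higher mean.

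Its 3 probes gave 2.26 ± 0.075, 2.09 ± 0.11 and 1.89 ± 0.42. The third, probe 4173, was lowest in set 1, at 1.51 with treated RNA in Cy5 and 1.32 in Cy3, and between 1.85 and 2.51 on the other 4 arrays. The other probes were between 1.85 and 2.55 on every array. All 3 probes were called higher on their own.

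Ltb encodes lymphotoxin β, the membrane anchor of the lymphotoxin complex that shapes lymphoid tissue. It had ratios of 0.91, 1.00 and 1.43 with treated RNA in Cy5, and of 2.11, 2.00 and 2.10 in Cy3. All 6 values were above 0, but the orientations did not overlap. The mean over sets was 1.59 ± 0.15 (n = 3), a 3.02-fold rise (limma adjusted p = 2.07e-06). Each orientation alone was called, at 1.11 and 2.07, so the size of the rise differed more between orientations than between sets. The orientations also did not overlap for Tnf (means 2.23 in Cy5 and 1.92 in Cy3), Tnfaip2 (1.81 and 1.58) and Tnip1 (1.58 and 1.77). Their means lay closer together than those of Ltb.

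Lta, the gene of the soluble ligand lymphotoxin α, had ratios of 0.29, -0.27 and 0.19 with treated RNA in Cy5, and of 0.49, 0.62 and 0.29 in Cy3. One array of set 2 was below 0. The set means were 0.39, 0.17 and 0.24, and the mean of 0.27 ± 0.11 (n = 3), 1.20-fold, passed the threshold (limma adjusted p = 0.00772). The call ended with the 6 arrays as separate values (limma adjusted p = 0.128) and on the arrays with treated RNA in Cy5 alone (0.069, adjusted p = 0.721). It held on those with treated RNA in Cy3 alone (0.47, limma adjusted p = 0.0180). Tnf, Ltb and Lta lie side by side, and their ratios thus ran from 0.27 to 2.08.

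Lta and Ltb are known from lymphocytes, so lymphocyte markers are given beside them. For the counts that follow, 14.0% of all features were called higher and 15.0% lower. Of 12 measured T and NK cell markers, 1 rose (Cd4, 0.23 ± 0.12) and 0 fell, and their means ran from -0.11 to 0.23. Of 7 B cell markers, 2 rose (Ighm, 0.47 ± 0.076, and Cd22, 0.15 ± 0.079) and 0 fell, with means from -0.0055 to 0.47. Cd22 was close to the threshold (limma adjusted p = 0.0489) and had 1 array below 0 (-0.34). T cell receptor complex genes Cd3d, Cd3e and Cd3g were at 0.022, 0.049 and 0.084 and were not called. The part of other cells in the ratios of Lta and Ltb was not tested. Of 15 macrophage markers 7 rose and 2 fell, and of 11 fibroblast and endothelial markers 1 rose (Kdr, 0.80 ± 0.36).

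The genes around the ligands were measured less completely. Of 14 listed genes of the surrounding segment of the major histocompatibility complex (class III), 6 had values on all arrays. Of these, 2 rose and 0 fell, with a median of 0.11, against 14.0% called higher and 15.0% lower among all features. Nfkbil1, an inhibitor-like gene next to Lta, rose by 0.52 ± 0.035 (limma adjusted p = 9.83e-05). Aif1, a calcium-binding protein gene of macrophages on the other side, rose by 0.27 ± 0.099 (limma adjusted p = 0.00585). It had 1 array below 0 (-0.11, set 2 with treated RNA in Cy5). Bag6 (0.13 ± 0.21) and Prrc2a (0.092 ± 0.060) were not called. Ddx39b, an RNA helicase gene beyond Nfkbil1, was at 0.0015 ± 0.015, and its set values ran from -0.015 to 0.014.

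Tnf and Ltb thus had the largest ratios among the measured genes within 10 protein-coding genes of Tnf on either side. Beyond Ddx39b the class I genes H2-D1, H2-Q1, H2-Q2, H2-Q4 and H2-Q7 ran from 0.32 to 0.67, and all 5 were called. They are related genes, so a probe of 1 of them may bind transcripts of the others, which was not tested.

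**Figure D3:**
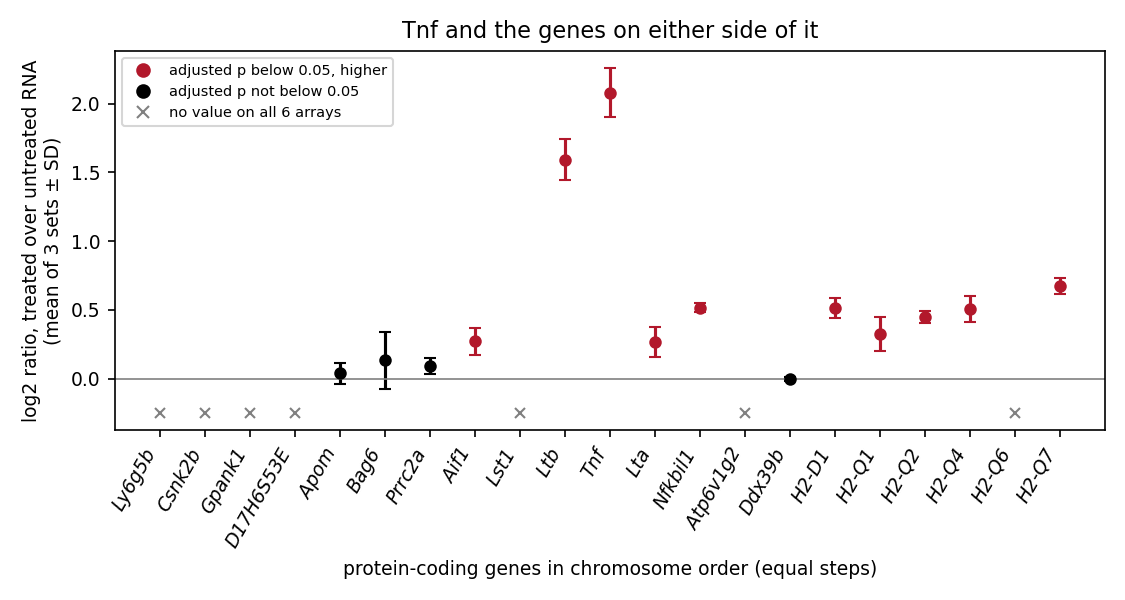
Mean log2 ratio of 3 sets ± SD (vertical axis) for Tnf and 10 protein-coding genes on each side in chromosome order (horizontal axis, equal steps, not to scale). Red points were called higher, black points were not called, and grey crosses mark genes with no value on all 6 arrays. Ltb (1.59) and Tnf (2.08) stand above their neighbours, which lie between 0.0015 and 0.67.

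Among genes named as TNF-induced, Tnfaip2, which encodes an exocyst-related protein of membrane tubes between cells, had ratios of 1.92, 1.74 and 1.78 with treated RNA in Cy5. With treated RNA in Cy3 they were 1.62, 1.53 and 1.60. With its 2 probes averaged, all 6 arrays lay within 0.39 of each other. The mean was 1.70 ± 0.067 (n = 3), a 3.24-fold rise (limma adjusted p = 3.53e-07). Its 2 probes were at 1.74 ± 0.065 and 1.65 ± 0.15. The first, probe 6460, averaged 1.98 with treated RNA in Cy5 and 1.51 in Cy3. The second, probe 9158, averaged 1.64 and 1.66, with 1.37 on the Cy5 array of set 2.

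Tnfaip3, the gene of A20, had ratios of 1.19 in set 2 and 1.57 in set 3 with treated RNA in Cy5, with set 1 between them, and of 1.15, 1.07 and 1.23 in Cy3. The lowest array was at 1.07. The mean was 1.29 ± 0.14 (n = 3), a 2.44-fold rise (limma adjusted p = 5.37e-06). That mean joins probes of unequal size. Probe 2887 had 1.71 ± 0.16 and probe 5145 had 0.86 ± 0.17, both called (limma adjusted p = 1.24e-06 and 5.80e-05).

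Probe 2887 was higher than probe 5145 on 6 of 6 arrays, by 0.30 to 1.32, and by 0.86 ± 0.17 over the 3 sets. In a limma fit of the differences between probes of 1 gene, over 2277 pairs, this gap passed (0.86, 95% interval 0.66 to 1.06, adjusted p = 0.00477), as did 10.2% of pairs. The pair was singled out after its values were seen. By probe 2887 Tnfaip3 lies beside Tnfaip2 and Tnip1, and by probe 5145 it lies below Tnf, Tnfaip2, Tnip1 and Ltb. Which transcripts each probe binds was not tested.

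Tnfaip1, the gene of an adaptor of a cullin ubiquitin ligase, had 0.10, 0.11 and 0.15 with treated RNA in Cy5, and 0.042, 0.16 and 0.080 in Cy3. All 6 arrays were above 0, which held for 12.4% of all features. The mean of 0.11 ± 0.032 (n = 3), 1.08-fold, was not called (limma adjusted p = 0.104), with a 95% interval of 0.0083 to 0.21.

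**Figure D4:**
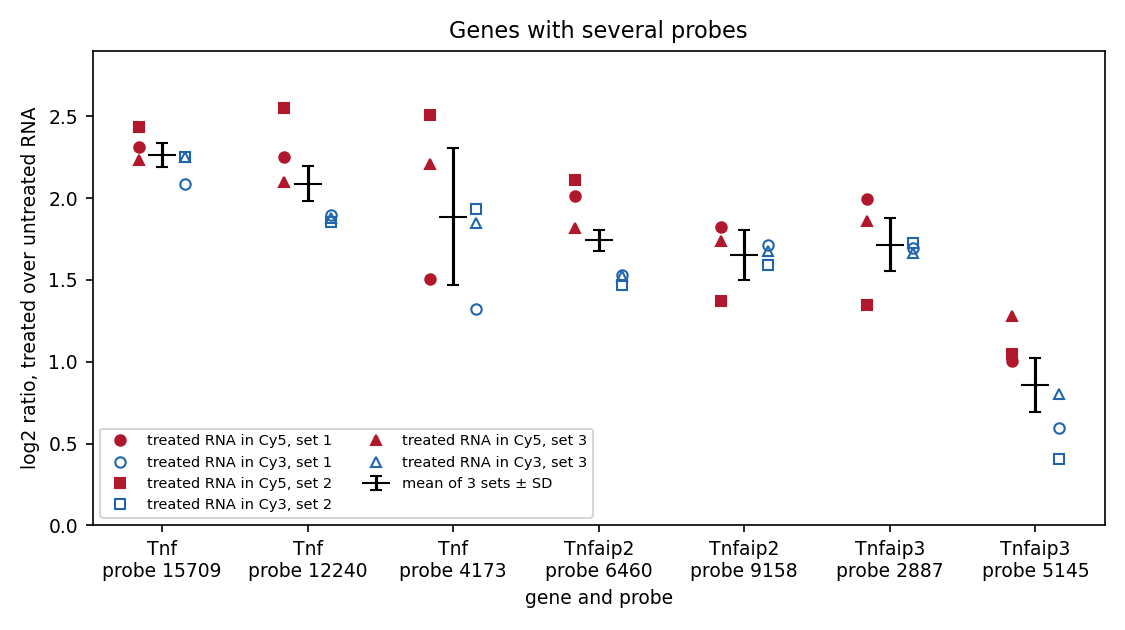
Log2 ratio of treated over untreated RNA (vertical axis) on each array for the 7 probes of Tnf, Tnfaip2 and Tnfaip3 (horizontal axis), with filled red symbols for treated RNA in Cy5, open blue symbols for treated RNA in Cy3, and black bars for the mean of 3 sets ± SD. The Tnfaip3 probes differ (1.71 and 0.86), and Tnf probe 4173 is spread most between sets (SD 0.42).

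Of the A20-binding proteins, Tnip1, which encodes ABIN1, a ubiquitin-binding brake on NF-κB, had 1.53, 1.63 and 1.58 with treated RNA in Cy5. In Cy3 the ratios were 1.79, 1.88 and 1.65. The mean was 1.68 ± 0.071 (n = 3), a 3.20-fold rise (limma adjusted p = 4.02e-07).

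Tnip2, the gene of the related ABIN2, which also holds the kinase TPL2, had 0.12, 0.085 and 0.10 with treated RNA in Cy5, and -0.19, 0.071 and 0.028 in Cy3. The values lay on both sides of 0. The mean of 0.036 ± 0.062 (n = 3) was not called (limma adjusted p = 0.62), and its 95% interval was -0.070 to 0.14. The intervals of Tnip1 (1.57 to 1.78) and Tnip2 did not overlap. In the printed windows the κB stretch lies before Tnip1, and none lies before Tnip2. None lies in the printed window of Tnf either, and Tnf had the highest ratio of these genes. A link between matches and ratios was not tested.

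In the order of mean ratios over sets, Tnf stood first, above Tnfaip2 by 0.38 ± 0.25 (SD, n = 3 sets) and on all 6 arrays. The place of Ltb depended on the orientation. With treated RNA in Cy3, Ltb averaged 2.07 and Tnf 1.92, and Tnf was above Ltb on 1 of 3 arrays. With treated RNA in Cy5, Tnf was above Ltb on 3 of 3 arrays, by a mean of 1.12. Ltb was above Tnfaip3 by 0.31 ± 0.10 over sets, yet below it on all 3 arrays with treated RNA in Cy5, by a mean difference of -0.31, and above it by 0.92 in Cy3.

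Tnfaip2 was above Tnip1 by 0.021 ± 0.12 and Tnip1 above Ltb by 0.084 ± 0.21 over sets, so neither gap exceeded its spread, and both had the opposite sign in Cy3 (-0.19 and -0.30). The widest step was from Tnfaip3 down to Lta, at 1.02 ± 0.12 and present on all 6 arrays. Lta was above Tnfaip1 by 0.16 ± 0.14 over sets, with a difference of -0.051 in Cy5. Tnfaip1 was above Tnip2 by 0.071 ± 0.032. The order among Tnfaip2, Tnip1, Ltb and Tnfaip3 was thus not the same in both orientations, and Tnfaip3 by its probe 2887 alone (1.71) would precede Ltb (1.59).

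The dye orientation was tested on the unturned set means, in which the treatment cancels. It is given as Cy5 over Cy3, and the orientations differ by 2 times this value. For Ltb it was -0.48, with a 95% interval of -0.66 to -0.30. For Lta it was -0.20 (-0.46 to 0.067), for Tnf 0.16 (0.029 to 0.28), for Tnfaip3 0.14 (0.021 to 0.25) and for Tnfaip2 0.11 (0.017 to 0.21). None of the 8 genes was called by limma (Ltb adjusted p = 0.166), nor was any feature (0.0%). Unadjusted p was below 0.05 for 4 of the 8 genes and for 23.1% of features.

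Genes with ratios most like those of Tnf over the 6 arrays, by Euclidean distance among 9574 named genes, were Marcksl1 (distance 0.21, ratio 2.03), Oasl2 (0.30, ratio 2.06), Trex1 (0.32, ratio 2.09) and Cebpd (0.33, ratio 2.16). Nearest to Tnfaip2 were Atf3 (distance 0.14), Pml (0.38), Ehd1 (0.39) and Slc15a3 (0.44). Nearest to Tnip1 were Gch1 (distance 0.24), Ifi211 (0.31), Sp100 (0.40) and Eif2ak2 (0.41). Because the arrays repeat 1 comparison, likeness here is mostly likeness in size.

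Receptors and shedding enzymes of the ligands rose in 4 of 7 measured cases and fell in 0, with a median of 0.29. Either direction was called for 29.0% of all features. Tnfrsf1b, the TNF receptor found mainly on leukocytes, rose by 1.44 ± 0.21 (limma adjusted p = 1.12e-05), and Tnfrsf1a, the widely expressed receptor, by 0.59 ± 0.081. Adam17, the protease that sheds TNF, rose by 0.71 ± 0.11, and Furin, which activates such proteases, by 0.29 ± 0.11. The lymphotoxin receptor gene Ltbr was at -0.092 ± 0.075 and the protease inhibitor gene Timp3 at 0.094 ± 0.067, and neither was called.

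In the list of proteins that assemble at the TNF receptor, 5 of 17 measured genes rose and 5 fell, with a median of 0.056. The shares over all features were 14.0% higher and 15.0% lower. The 3 largest rises were those of the adaptor gene Traf1 (1.48 ± 0.14), the caspase-8 inhibitor gene Cflar (1.47 ± 0.085) and the ubiquitin ligase gene Birc3 (1.17 ± 0.098). Casp8 (0.39 ± 0.16) and the kinase gene Map3k7 (0.19 ± 0.010) also rose, each with 1 array below 0. The kinase genes Map3k5 (-0.46 ± 0.067) and Map3k14 (-0.28 ± 0.085) fell. So did the death adaptor gene Fadd (-0.20 ± 0.083) and the kinase partner genes Tab1 (-0.19 ± 0.045) and Tab3 (-0.18 ± 0.048). Traf5 (0.17 ± 0.14) and Ikbkb (0.13 ± 0.025) were not called. Of these 10 calls, 6 passed with the 6 arrays as separate values, 5 with the set as a fixed replicate block and 4 with treated RNA in Cy5 alone. Traf1, Cflar, Birc3 and Map3k5 passed in all 3 of those fits, whereas Casp8, Map3k7, Fadd and Tab3 passed in 0. With treated RNA in Cy3 alone, Casp8 (limma adjusted p = 0.0257), Map3k7 (0.0152) and Tab3 (0.0339) passed. Fadd (0.518) and Tab1 (0.0775) did not.

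Of the partners of A20 and other deubiquitinases, 4 of 12 listed genes were measured, with 2 rises and 0 falls. Among all features 14.0% were called higher and 15.0% lower. Rnf11, a partner of A20, rose by 0.29 ± 0.029, while the partner genes Tax1bp1 (0.027 ± 0.019) and Itch (0.026 ± 0.016) were not called. Usp18, which removes the ubiquitin-like ISG15, rose by 3.41 ± 0.41.

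Relatives of the Tnfaip genes had 1 rise and 2 falls among 5 measured, against 29.0% of all features called in either direction. Tnfaip8l2, a relative of the unmeasured Tnfaip8, rose by 0.26 ± 0.11 (limma adjusted p = 0.00849). Exoc3l2, of the family of Tnfaip2, fell to -0.32 ± 0.091, and Otud1, a deubiquitinase gene, fell to -0.31 ± 0.10. Tnfaip6, a hyaluronan-binding protein gene unrelated to A20, was at 0.25 ± 0.30 and was not called (limma adjusted p = 0.113), with arrays from -0.16 to 0.88. Zranb1, a deubiquitinase gene, was at 0.018 ± 0.098.

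**Figure D5:**
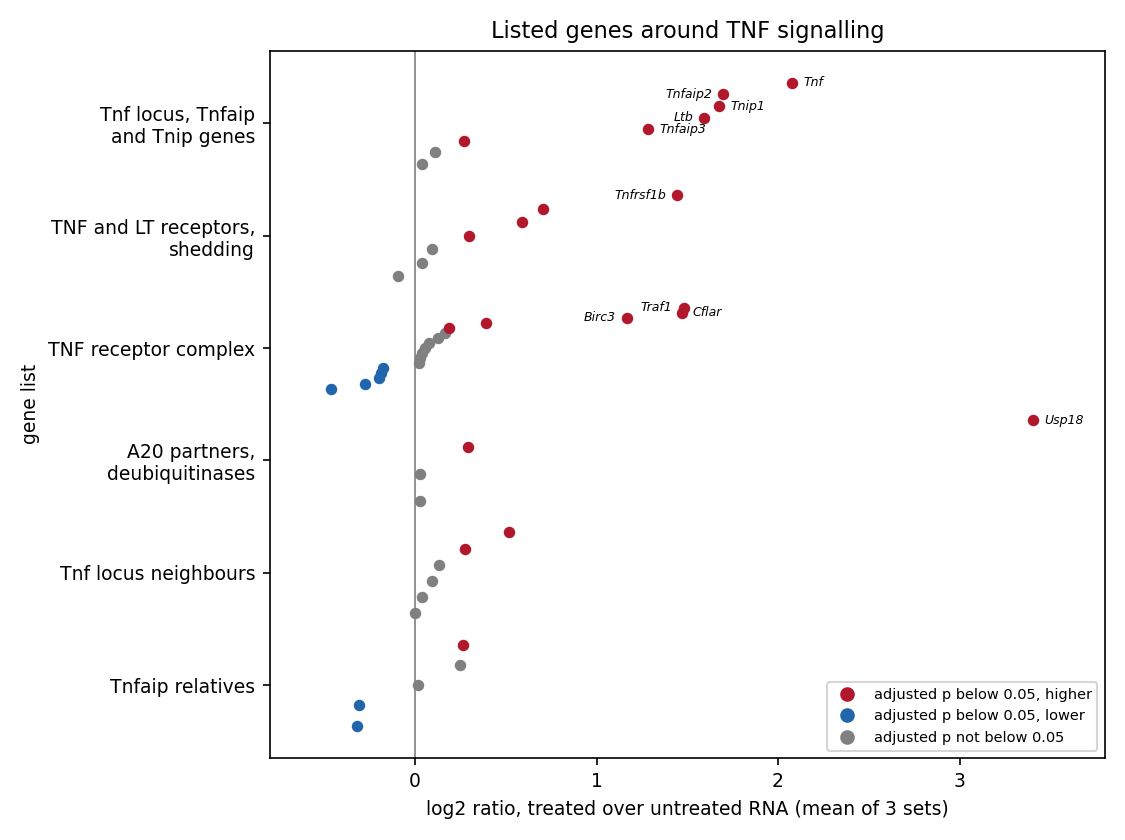
Mean log2 ratio of treated over untreated RNA over 3 sets (horizontal axis) for the 8 genes and 5 lists around TNF signalling (vertical axis, 1 point per gene). Red points were called higher, blue lower and grey not called, and genes beyond 0.9 are named. The receptor complex list has 5 points on each side among those called.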

How the data were processed

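Log2 ratios of 6 two-colour arrays were used as the authors deposited them, 1 value per probe and array. The base follows from the largest value, log2 of a ratio of 100. The scanner, background correction, dye normalization and genome build are not given in the sources used here, and any compression of ratios at dim spots is unknown. Every array has a median of 0 when exact zeros are included. Over the features with values on all 6 arrays, after the signs were turned, array medians ran from -0.012 to 0.013. Per the labels Cy5 is the test channel, so the deposited ratio was taken as Cy5 over Cy3. Arrays of opposite orientation correlated from -0.76 to -0.37 across probes, and the sign was turned where treated RNA was in Cy3. The number of arrays limits the precision.

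Between 1254 and 2086 exact zeros per array were taken as not measured, and the 13415 probes with values on all 6 arrays were kept. Symbols came from the platform's annotation: 13738 probes had 1 symbol, 52 had several and 2491 had none listed. Through Entrez IDs 13694 matched the GRCm38.p6 gene table and 0 changed. Probes of 1 gene were averaged, which gave 11364 features. Both arrays of a set were averaged as 1 replicate, which assumes that a set is a dye swap of the same RNA. The 3 set values were tested against 0, two-sided, with limma 3.58.1 in R 4.3.3 (lmFit, eBayes, Benjamini-Hochberg over all features). The fit was also run on simulated independent set values, which cannot show whether the arrays were rightly paired into sets. Promoter sequences are from RefSeq, and 8 of 8 measured genes matched.

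The members, gene lists and tests were chosen with earlier results of these data known. Named were all members and, for each list, the called genes and up to 2 others with the largest change. Also named were the 4 nearest genes of Tnf and of the 2 other members with the largest change. Differences between probes of 1 gene, as set means, were tested in the same way, a test added after the data were seen. Marker genes, Ddx39b and the H2 genes were named after their values were seen. Alternatives covered the set number, normalization, orientation, each set left out, exact zeros, single probes, variances and thresholds.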

Additional observations from a re-analysis of the deposited data

Results flagged for a closer look

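A signal was found at 2 probes left out of the gene values. Their annotation names several of the ligand genes, so that neither can be assigned to 1 of them. The probe annotated to Tnf, Ltb and Lta had a log2 ratio of treated over untreated RNA of 1.69 ± 0.29 (SD, n = 3 sets; limma adjusted p = 1.67e-05). Its arrays ran from 1.53 to 2.19 with treated RNA in Cy5 and from 1.20 to 1.67 in Cy3. The probe annotated to Tnf and Lta had 1.58 ± 0.24 (limma adjusted p = 1.09e-05), with arrays from 0.79 to 1.91 in Cy5 and from 1.42 to 2.29 in Cy3. Both were above 0 on all 6 arrays, and the table holds no array of untreated RNA against itself to set beside them.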

How the results depend on the processing

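The rises of Tnf, Ltb, Tnfaip2, Tnfaip3 and Tnip1 kept their direction and their call in all 17 to 19 alternatives run for each. Their ranges were 1.89 to 2.26, 1.11 to 2.07, 1.58 to 1.81, 0.86 to 1.71 and 1.58 to 1.77. Alternatives that changed only the replicate block, variances or threshold returned the main ratio, so only the call could change in them. For Ltb and Tnip1 the single probe is the gene value itself. Lta kept its direction but was not called over 6 arrays with no replicate block (0.27, adjusted p = 0.128) or with the set as a fixed replicate block (0.27, adjusted p = 0.26). It was also not called with treated RNA in Cy5 alone (0.069) or against a 1.5-fold change (0.27). Its limma adjusted p over all alternatives ran from 2.65e-04, without set 2, to 1, in the test against a 1.5-fold change. That test asks another question, so the ends are not alike. Tnfaip1 was called with the set as a random replicate block (0.11, adjusted p = 0.0261, against up to 1 in the others). That fit used a correlation within sets of -0.51, which rests on the assumed pairing of arrays into sets. It called 1779 features higher, against 1586 in the main fit. With treated RNA in Cy3 alone Tnip2 was at -0.029, and by probe 9158 alone the dye effect of Tnfaip2 was -0.0083. Over all features, higher and lower calls numbered 904 and 848 with the fixed replicate block and 931 and 894 with treated RNA in Cy5 alone. They numbered 261 and 35 against a 1.5-fold change, and lower calls numbered 1079 with treated RNA in Cy3 alone and 1063 at an adjusted p below 0.01. In the receptor complex list, the 10 calls were 6 with no replicate block, 5 with the fixed replicate block, 4 with treated RNA in Cy5 alone, 6 at the stricter threshold and 3 against a 1.5-fold change. Against a 1.5-fold change, receptors and shedding had 1 call, A20 partners 1, locus neighbours 0 and relatives 0. The fixed replicate block gave 1 call among A20 partners and 1 among locus neighbours, Cy5 alone 1 among locus neighbours, and Cy3 alone 1 among A20 partners and 1 among relatives. A stricter test calls fewer by construction, and for the others the cause was not tested. Same-numbered arrays did not deviate together: the correlations of their deviations from the orientation means were -0.48, -0.51 and -0.02 for sets 1 to 3, and set 1 and set 2 each correlated best with the other number (0.45 and 0.53). Without intensities, ratios of dim spots cannot be told from those of bright ones.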
